A study of Mus musculus with 6 samples.

Results

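The 9 genes described here make, take up, break down or sense retinoic acid in mouse testis. They are the retinaldehyde dehydrogenases Aldh1a1, Aldh1a2 and Aldh1a3, the retinol uptake receptor Stra6, the retinoic acid hydroxylases Cyp26a1 and Cyp26b1, and the nuclear receptors Rara, Rarb and Rarg. They were found through the RefSeq accessions of the mRNA probes, which gave 10 probes for these 9 genes out of 21905 probes for 19053 genes. The study compared whole testis of neonatal male C57/BL6 mice at 6 days of age with that of adult males of the same strain at 8 weeks. The paper writes the strain as C57BL/6. Each age was measured on 3 arrays in 1 colour (Cy3). An array stands for 1 of 3 groups of animals at that age and not for a single mouse.

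Retinoic acid is made from vitamin A in 2 steps. Retinol is oxidized to retinaldehyde, and retinaldehyde dehydrogenases turn that into retinoic acid, which enters the nucleus and binds receptors that sit on DNA as pairs with a retinoid X receptor. Enzymes of the Cyp26 family hydroxylate retinoic acid and so limit where it acts. In the testis it is known for driving spermatogonia to differentiate and germ cells to enter meiosis, and it is made by Sertoli cells as well as by germ cells.

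Signals were divided by the 75th percentile of their array and put on the log2 scale, with a floor at -7.22, and are called normalized log2 signal. Levels of different probes on this scale cannot be set against each other, so comparisons run between ages for 1 probe. Each gene was tested with limma across all lncRNA and mRNA probes, with the replicate number as a block. Genes are said to rise or fall where the p adjusted by the Benjamini-Hochberg method was 0.05 or less, and to be differentially expressed where they also changed 5-fold or more. Spots that the scanner software flagged as outliers were left out of the test, and a gene needed 2 complete pairs of arrays. Neonatal replicate 3 was flagged for 8 of the 9 genes and adult replicate 3 for 4, so most fold changes rest on pairs 1 and 2. The values per array below include the flagged spots.

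All 9 genes were well above background on each of the 6 arrays, and 8 could be tested. Of these, 7 fell from neonatal to adult testis and 1 rose. Among all 15121 mRNA probes tested, 45.8% fell and 29.7% rose, so a fall by itself was common. The median log2 fold change was -2.04 over the 8 genes and -0.40 over all mRNA probes tested. Differentially expressed and lower in adult testis were 4 of the 8 (Cyp26b1, Rarb, Rarg and Stra6), against 13.7% of all mRNA probes. None of the 8 was differentially expressed and higher by limma (0, against 12.6% of all mRNA probes), with the p adjusted or not, since the 1 gene that rose changed by less than 5-fold. The count of 4 was not the same in every alternative. In the normexp alternative, which changed the background correction, the signal column and an added offset together, it was 2 (Cyp26b1 and Stra6), all 7 falls keeping their calls. It was 3 by the methods' t-test with adjustment, where Stra6 was not called, and 3 without the replicate block and neonatal replicate 1, adult replicate 1 or adult replicate 2, where Rarg changed by less than 5-fold. With the flagged spots kept, all 9 were tested, 8 fell and 1 rose, while 49.5% of 19310 mRNA probes fell and 29.8% rose.

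**Figure D1:**
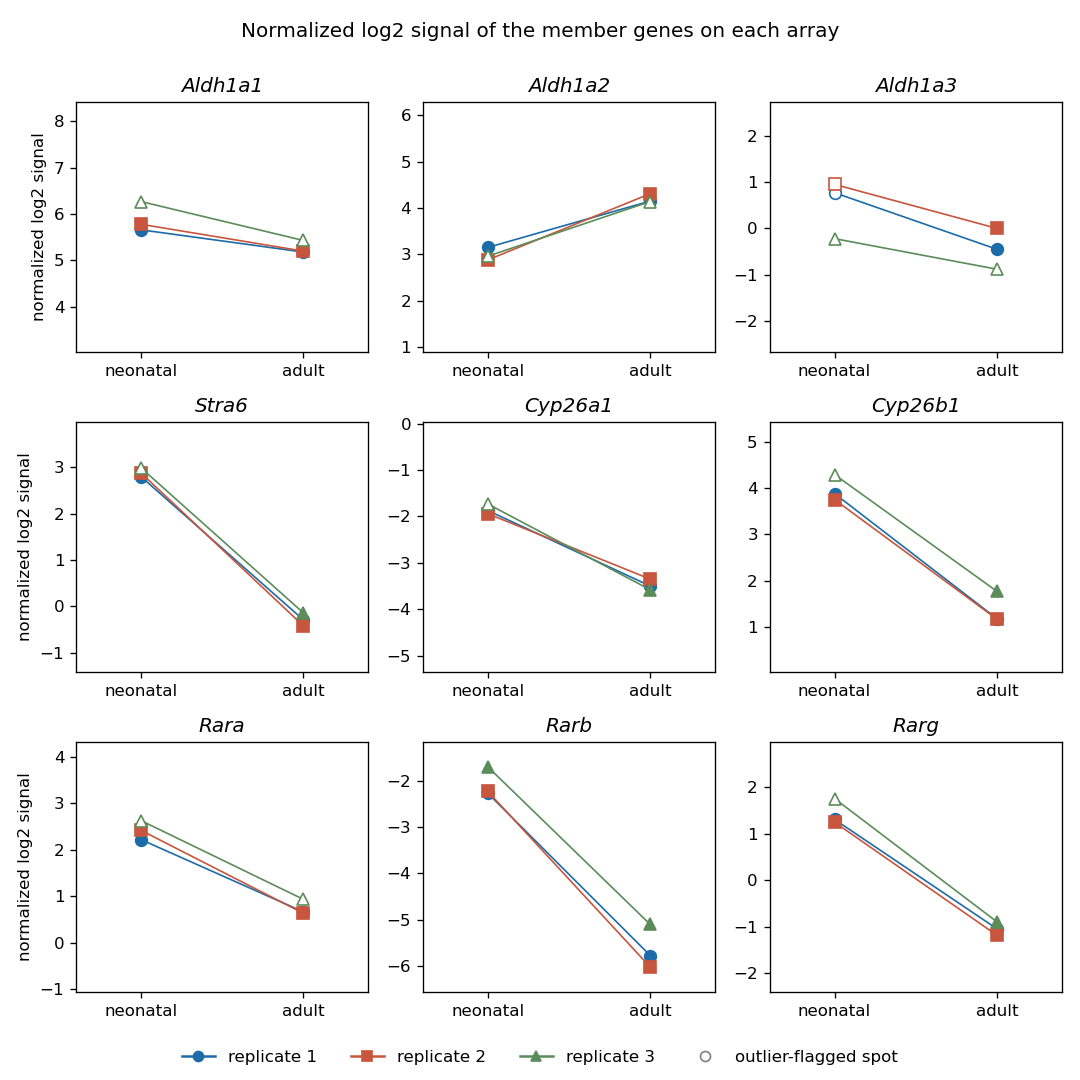
Normalized log2 signal (vertical axis) of the 9 genes in neonatal and adult testis, with a line joining the arrays of the same replicate number and open symbols for outlier-flagged spots. Each panel spans the same height around its own middle. Aldh1a2 lies higher in adult testis in all 3 pairs and the other genes lie lower, with the steepest lines for Rarb and Stra6.

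The retinaldehyde dehydrogenases did not move together. Aldh1a2, the enzyme that makes most retinoic acid in the embryo and is known in the testis from germ cells, had a normalized log2 signal of 3.15, 2.88 and 2.96 on the neonatal arrays 1 to 3 and of 4.15, 4.31 and 4.14 on the adult arrays. Every adult array was above every neonatal array. It rose 2.31-fold in the 2 pairs tested (log2 ratio 1.21, SE 0.19, adjusted p = 0.0111 from limma), and the flagged pair was higher in the adult as well. Of all mRNA probes tested, 21.0% rose further. The direction held in all 24 alternatives that could be fitted, but the call was lost in 4 of them: after quantile normalization (adjusted p = 0.0528), with no filter on dim probes (0.0885), by the methods' t-test (0.155) and without the replicate block and adult replicate 2 (0.0581).

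Aldh1a1, the form known from Sertoli cells, had values of 5.66, 5.78 and 6.27 on the neonatal arrays and 5.18, 5.20 and 5.43 on the adult arrays. The ages did not overlap, but the gap between them was narrow. It fell 1.45-fold (log2 ratio -0.53, SE 0.14, adjusted p = 0.0423), which is near the median of all mRNA probes and close to the threshold. The call was lost in 8 of 24 alternatives, namely the 2 that set the floor otherwise, the methods' t-test, the 4 without the replicate block that left out 1 array alone of replicates 1 and 2 at either age, and that without replicate 2 with flagged spots kept, with an adjusted p of up to 0.142. Its size varied as well, and after quantile normalization the log2 ratio was -1.36 (adjusted p = 0.00564), where the median of all mRNA probes was -0.73.

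Aldh1a3, the remaining enzyme of this step, had values of 0.77, 0.95 and -0.22 on the neonatal arrays and -0.45, 0.00 and -0.88 on the adult arrays. The neonatal value of replicate 3 lay below the adult value of replicate 2, so the ages overlapped, while each pair was lower in the adult. All 3 neonatal spots and adult replicate 3 were flagged, and the gene could be tested only with these spots kept (log2 ratio -0.94, SE 0.15, adjusted p = 0.00509 from limma).

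Within pairs, the change of Aldh1a2 exceeded that of Aldh1a1 by 1.48, 2.01 and 2.02 on the log2 scale, and that of Aldh1a3 by 2.21, 2.37 and 1.84. These differences between genes were not tested, and the spread over pairs was 0.31 and 0.27 (SD, n = 3). The change of Aldh1a3 against Aldh1a1 was -0.73, -0.36 and 0.18, which has no common sign.

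Stra6 is the membrane receptor that carries retinol from its binding protein in blood into cells. Its normalized log2 signal was 2.80, 2.88 and 2.99 in neonatal testis and -0.29, -0.42 and -0.14 in adult testis. The arrays of an age lay close together and the ages were far apart. The fall was 9.12-fold (log2 ratio -3.19, SE 0.15, adjusted p = 0.00083 from limma), and 5.23% of the mRNA probes tested fell further. In bulk tissue, fewer cells that express a gene and less RNA in each cell cannot be told apart, here and for the other genes.

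Both hydroxylases fell. Cyp26b1, which in the fetal testis is known to keep retinoic acid from germ cells, had values of 3.88, 3.75 and 4.29 on the neonatal arrays and 1.18, 1.17 and 1.77 on the adult arrays. Replicate 3 was the highest at both ages, and the ages did not overlap. It fell 6.25-fold (log2 ratio -2.64, SE 0.14, adjusted p = 0.00107).

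Cyp26a1, an enzyme of the same activity whose gene is itself induced by retinoic acid in many tissues, was measured at -1.87, -1.94 and -1.73 in neonatal testis and at -3.50, -3.35 and -3.58 in adult testis. The ages were well separated. It fell 2.87-fold (log2 ratio -1.52, SE 0.15, adjusted p = 0.00402). The fall of Cyp26b1 was the larger in each of the 3 pairs (difference of the changes -1.07, -1.18 and -0.67), a difference that was not tested. Cyp26c1, the next gene to Cyp26a1 in the RefSeq table of GRCm38.p6, was at the floor on 5 of 6 arrays and at -6.26 on adult replicate 2.

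All receptors fell, to unequal extents. Rara, the form known from Sertoli cells and needed for spermatogenesis, had values of 2.22, 2.42 and 2.63 on the neonatal arrays and 0.66, 0.63 and 0.93 on the adult arrays. The spread within an age was small beside the gap between ages. It fell 3.19-fold (log2 ratio -1.67, SE 0.15, adjusted p = 0.00327).

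Rarb, a receptor whose gene is a classical target of retinoic acid, was measured at -2.27, -2.23 and -1.70 in neonatal testis and at -5.77, -6.02 and -5.10 in adult testis. It is the one gene of the 9 with no flagged spot, and replicate 3 was the highest at both ages. The fall of 11.8-fold (log2 ratio -3.56, SE 0.13, adjusted p = 0.000166 from limma) was seen in 3 of 3 pairs, and 3.30% of mRNA probes fell further. Its size was not the same in every alternative, and in the normexp alternative the log2 ratio was -2.07, below 5-fold.

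Rarg, the receptor known from undifferentiated spermatogonia, has 2 probes. The probe for NM_011244 gave 1.31, 1.25 and 1.76 on the neonatal arrays and -1.05, -1.19 and -0.90 on the adult arrays. The probe for NM_001042727 gave 1.39, 1.32 and 1.28, and -1.08, -1.07 and -0.83. The probes moved alike, by -2.40 (SE 0.14) for the former and -2.43 (SE 0.14) for the latter on the log2 scale, where the adjusted p was 0.00125 and 0.00122 by limma.

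The fall of Rarb exceeded that of Rara in each pair (difference of the changes -1.94, -2.01 and -1.69), and so did the fall of Rarg (-0.80, -0.65 and -0.95). Against Rarg, the difference for Rarb was -1.14, -1.36 and -0.74. None of these differences was tested. Ordered by the mean change over 3 pairs with flagged spots kept, Rarb (-3.56) came first, then Stra6 (-3.17), Cyp26b1 (-2.60), Rarg (-2.48), Rara (-1.68), Cyp26a1 (-1.63), Aldh1a3 (-0.94), Aldh1a1 (-0.63) and Aldh1a2 (1.20). The ranges over pairs overlapped between Cyp26b1 and Rarg, between Rara and Cyp26a1 and between Aldh1a3 and Aldh1a1, and these neighbours have no order. The first place of Rarb is not firm, as its log2 ratio in the normexp alternative (-2.07) was smaller than those of Stra6 (-3.18), Cyp26b1 (-2.87) and Rarg (-2.30).

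A scan identifier shared in the file headers was taken as the slide. By it, replicates 1 and 2 of both ages were on 1 slide and replicate 3 of both ages on another, which allows the same comparison on each. With flagged spots kept, the median change over the 9 genes was -1.67 on the former slide and -1.85 on the latter, and that over all mRNA probes was -0.51 and -0.49. Slide and replicate 3 cannot be told apart.

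Among 4380 other mRNA probes with every array well above background and no flagged spot, the pattern closest to that of Rarb was that of Fthl17c, a gene of the ferritin heavy chain family, with a root mean square difference of 0.09 between centred values over 6 arrays. It was measured at 3.64, 3.85 and 4.40 in neonatal testis and at 0.30, 0.18 and 0.89 in adult testis. The next was Nfkbid, an inhibitor of NF-kappa-B, with a difference of 0.10 and values of 0.12, 0.20 and 0.96, and -3.21, -3.40 and -2.46. Like Rarb, both were highest on replicate 3 of each age.

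Receptor pairs bind direct repeats of a 6-base half-site. Promoters from RefSeq on GRCm38.p6, with 250 bases before and 50 after the start of a gene, were found for 8 of the 9 genes (16 promoters). For Aldh1a3 the search found none. They were searched on both strands for a repeated half-site, written AGGTCA in its usual form or as the variants AGTTCA and also GGGTCA and also GGTTCA, with 1, 2 or 5 bases between the copies. The repeat with 5 bases between was found in the promoters of Rarb and Cyp26a1, and in 0.0974% of all 32851 promoters. Repeats with 1 or 2 bases between, held by 0.222% and 0.268% of all promoters, were found in none of the 16. The 100 bases before the start are shown for both genes, since these are the members whose promoters hold the repeat, with the repeat in capitals.
Rarb, chr14:16575477-16575576, minus strand: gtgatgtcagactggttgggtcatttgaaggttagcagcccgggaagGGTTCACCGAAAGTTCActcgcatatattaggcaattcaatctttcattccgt
Cyp26a1, chr19:37697708-37697807, plus strand: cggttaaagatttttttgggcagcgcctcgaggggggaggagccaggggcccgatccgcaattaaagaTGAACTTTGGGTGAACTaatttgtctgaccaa
In Rarb the repeat lies 53 to 37 bases before the start and reads along the gene. In Cyp26a1 it lies 32 to 16 bases before the start and reads on the opposite strand. A match of letters is a description and does not show that a receptor binds there.

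The other genes of the pathway were taken as 5 lists of 63 genes, of which 60 had a probe and 44 were tested. Of these, 26 fell (the share among all mRNA probes was 45.8%) and 11 rose (29.7%), and 7 did not pass the test. The median log2 fold change was -1.0, or -0.93 with the 6 genes that have only a bound set at that bound, against -0.40 over all mRNA probes. With flagged spots kept, 31 of 53 fell and 15 rose.

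**Figure D2:**
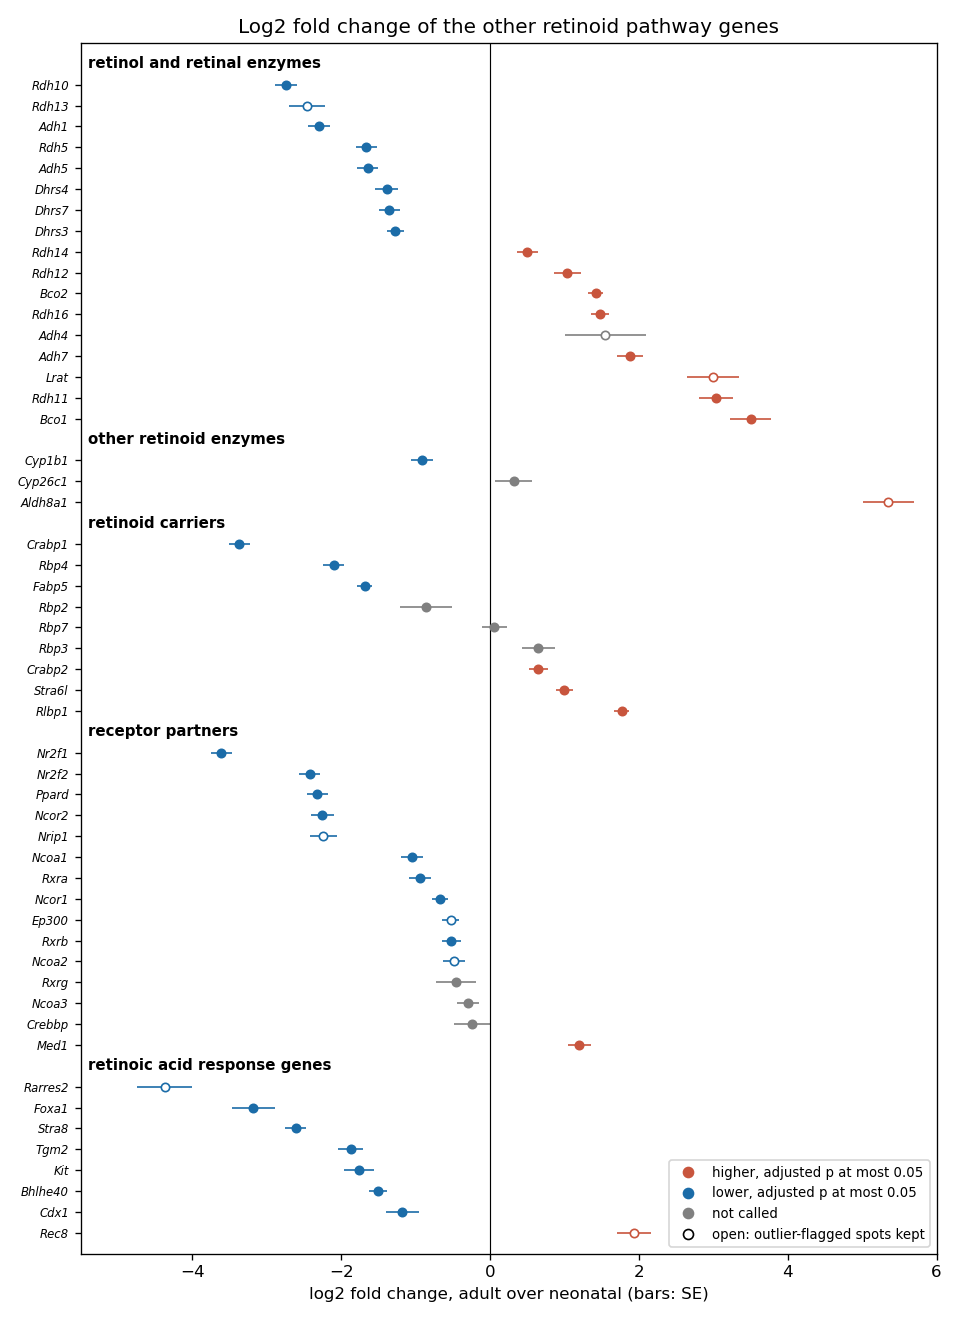
Log2 fold change, adult over neonatal (horizontal axis), of the other pathway genes reported here by list, with bars of 1 SE and open symbols for genes tested only with outlier-flagged spots kept. The fitted values of genes not well above background at 1 age, such as Bco1 and Aldh8a1, are no measure of their fold change. Retinoic acid response genes lie mostly to the left of 0, and the retinol and retinal enzymes on both sides.

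Enzymes that handle retinol and retinaldehyde were split, with 7 of 14 tested genes higher and 7 lower (29.7% and 45.8% among all mRNA probes). Rdh10, which oxidizes retinol to retinaldehyde, was measured at -0.65, -0.71 and -1.04 in neonatal testis and at -3.49, -3.36 and -3.55 in adult testis. It fell 6.70-fold (log2 ratio -2.74, SE 0.15, adjusted p = 0.00108). Dhrs3, which turns retinaldehyde back into retinol, was well above background on 2 neonatal arrays and not on any adult array. It was lower in the adult (adjusted p = 0.00143 from limma). The value of 1.84-fold is no firm bound, since the neonatal mean behind it includes the dim neonatal array. After the normexp background correction the fitted change of Dhrs3 had the opposite sign.

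Others of these enzymes were higher in the adult. Rdh11, a retinaldehyde reductase, was measured at -3.53, -3.74 and -4.58 in neonatal testis and at -0.18, -1.01 and -1.57 in adult testis. The arrays of an age were spread, but the ages did not overlap, and it rose 8.22-fold (log2 ratio 3.04, SE 0.23, adjusted p = 0.00208). Bco1, which cleaves beta-carotene into retinaldehyde, was not well above background on any neonatal array and reached -3.09, -3.70 and -4.39 in adult testis, at least 10.6-fold higher (adjusted p = 0.000879), though the log2 ratio was only 1.93 in the normexp alternative. A bound of this kind sets the mean of the bright age against each dim array, taken at the lowest signal that still counted as well above background or at the probe's own signal where that is higher.

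Lrat, which esterifies retinol for storage, had values of -4.76, -5.24 and -5.0 in neonatal testis and -2.06, -1.30 and -2.68 in adult testis. Adult replicates 1 and 2 were flagged, and with these spots kept it was 7.93-fold higher in adult testis (log2 ratio 2.99, SE 0.35, adjusted p = 0.00171). Rdh13, a retinol dehydrogenase likewise tested only with its flagged spots kept and picked out after its values were seen, was 5.52-fold lower in adult testis (log2 ratio -2.46, SE 0.24, adjusted p = 0.00092), with values of 0.76, 0.97 and -0.18, and -1.80, -1.98 and -2.06. Aldh8a1, an aldehyde dehydrogenase that can accept retinaldehyde and that was picked out after its values were seen, was at the floor on all 3 neonatal arrays and at -2.74, -1.14 and -1.75 on the adult arrays, at least 38.2-fold higher with its flagged spots kept (adjusted p = 0.000262).

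Carriers bind or take up retinoids, and not all of those listed act inside cells. Of 10 tested, 4 fell and 3 rose, which is near the shares among all mRNA probes (45.8% and 29.7%). Crabp1, a cytosolic binding protein for retinoic acid, was measured at 4.55, 4.60 and 5.01 in neonatal testis and at 1.39, 0.94 and 1.71 in adult testis. No spot was flagged, and it fell 10.4-fold (log2 ratio -3.37, SE 0.14, adjusted p = 0.000207).

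Crabp2, which hands retinoic acid to receptors, moved the other way from Crabp1, from -1.57, -1.49 and -0.84 to -1.14, -0.65 and -0.15. Its ages overlapped, though each pair was higher in the adult, and it rose by 0.65 on the log2 scale (SE 0.13), with an adjusted p of 0.0114.

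Of the receptor partners, the retinoid X receptors, coactivators, corepressors and related nuclear receptors, 8 of 12 tested fell and 1 rose. Among all mRNA probes tested, 45.8% fell and 29.7% rose. The 1 rise was that of Med1, picked out after its values were seen, by its brightest probe (log2 ratio 1.2). Its other probes, which were dimmer, gave 0.09 and 0.22 (adjusted p = 0.781 and 0.626 from limma), so they did not share the rise. Rxra had values of -5.12, -4.98 and -4.03 in neonatal testis and -6.27, -5.62 and -5.05 in adult testis, and Rxrb of 2.62, 2.7 and 3.00 and 2.17, 1.94 and 2.66. For both the ages overlapped while each pair was lower in the adult, by -0.94 for Rxra (SE 0.15, adjusted p = 0.00557) and by -0.52 for Rxrb (SE 0.13, adjusted p = 0.0238) on the log2 scale. In the normexp alternative the value for Rxra was -0.05, so its fall is uncertain. Rxrg has 2 probes that disagreed: NM_001159731 gave a log2 ratio of -0.46 (SE 0.27, adjusted p = 0.195), which turned positive after the normexp background correction, and NM_009107, not well above background on any adult array, was at least 2.03-fold lower in the adult (adjusted p = 0.00407).

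By the brightest probe of each gene, the largest falls in this list were those of the orphan receptors Nr2f1 and Nr2f2, which can bind the same repeats. Nr2f1 was measured at -1.40, -1.12 and -0.61 in neonatal testis and at -5.02, -4.72 and -4.97 in adult testis, a fall of 12.2-fold (log2 ratio -3.61, SE 0.14, adjusted p = 0.00056) that was smaller in the normexp alternative (-2.48). Nr2f2 had values of 0.04, 0.06 and -0.22, and -2.40, -2.33 and -2.65, a fall of 5.36-fold (log2 ratio -2.42, SE 0.14, adjusted p = 0.00121). A second probe for Nr2f2 could be tested only with its flagged spots kept. It gave a fall of 4.2-fold (log2 ratio -2.07, SE 0.20, adjusted p = 0.000874 from limma), so the 5-fold change rests on 1 probe.

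Of the retinoic acid response genes, all 6 that were tested fell, out of 10 with a probe, while 45.8% of all mRNA probes fell. One of the 6, Bhlhe40, was not well above background on any adult array, and its fitted change (-1.50) turned to 0.23 in the normexp alternative. Stra8, which is induced by retinoic acid in germ cells and needed for entry into meiosis, was measured at 4.30, 4.24 and 4.29 in neonatal testis and at 1.65, 1.67 and 1.53 in adult testis. Arrays of an age were nearly equal, and it fell 6.10-fold (log2 ratio -2.61, SE 0.14, adjusted p = 0.00107). Kit, the receptor of differentiating spermatogonia, had values of 4.08, 4.0 and 4.63 and 2.07, 2.49 and 2.42, a fall of 3.38-fold (log2 ratio -1.76, SE 0.20, adjusted p = 0.00517).

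Foxa1, a transcription factor induced by retinoic acid in cultured cells, was measured at -2.55, -2.86 and -2.87 at 6 days and at -5.70, -5.36 and -6.76 at 8 weeks. It was well above background on 2 of the 3 adult arrays. The fitted fall was 9.07-fold (log2 ratio -3.18, SE 0.29, adjusted p = 0.00126), but -1.50 on the log2 scale in the normexp alternative, so its size is uncertain. Rec8, a meiotic cohesin, went the other way, from 0.11, -0.23 and -1.22 to 1.80, 1.35 and 1.29, and with its flagged spots kept was 3.81-fold higher in adult testis (log2 ratio 1.93, SE 0.23, adjusted p = 0.00168). Rarres2, the precursor of chemerin, which was picked out after its values were seen, lay at 2.77, 1.86 and 4.06 in neonatal testis and at -2.12, -1.49 and -0.80 in adult testis, 20.6-fold lower with flagged spots kept (log2 ratio -4.37, SE 0.37, adjusted p = 0.000582).

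The study lists lncRNAs beside Aldh1a2, Cyp26b1 and Lrat, chosen among those that differed between these samples, so their values are a description. The one beside Aldh1a2, uc009qow, was at the floor on all 3 neonatal arrays and at 2.08, 2.21 and 2.59 on the adult arrays. AK019668, beside Cyp26b1, was measured at -7.22, -7.22 and -7.12 in neonatal testis and at -1.18, -1.59 and -0.47 in adult testis. AK161442, beside Lrat, was measured at -6.72, -6.80 and -6.65, and at -3.85, -3.82 and -4.42. All 3 were higher in the adult, as Aldh1a2 and Lrat were, while Cyp26b1 was lower.

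Markers of the cells in a testis moved with age as well, and their part in the changes above was not tested. For each list of markers below, the shares among all mRNA probes are 45.8% lower and 29.7% higher. Spermatid markers rose in 5 of 5 tested genes of a list of 6, with a mean normalized log2 signal of -4.07, -4.26 and -3.88 in neonatal testis and of 6.96, 7.13 and 7.39 in adult testis. Spermatocyte markers rose in 3 of 4 and fell in 1, with means of -0.44, -0.69 and -0.99 against 1.1, 1.70 and 1.60. The 1 fall, that of Dmc1, is of uncertain size. Dmc1 was well above background on only 1 adult array, and its change (-2.06) was -0.39 in the normexp alternative. The means include Sycp3, not tested because of flagged spots, which stood at -0.61, 3.94 and 3.19 on the adult arrays. Germ cells past meiosis are absent from a testis at 6 days and abundant in the adult. Spermatogonia markers fell in 2 of 3 and rose in 1, with means of -2.49, -2.41 and -2.51 against -3.65, -3.68 and -3.50, and Gfra1 was at the floor on all arrays. One of the 2 falls, that of Ret, is uncertain. Ret was not well above background on any adult array, and its fitted change (-1.59) was -0.17 in the normexp alternative. A second probe for Ret gave -0.1 (adjusted p = 0.696 from limma).

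Markers of somatic cells were mostly lower in the adult. Sertoli markers fell in 4 of 4 tested genes, with means of 1.99, 2.09 and 1.65 in neonatal testis and -0.12, -0.39 and -0.74 in adult testis. The means include 4 genes not tested because of flagged spots, and with those spots kept 8 of 8 fell. One of the tested falls, that of Amh, is of uncertain size. Amh was well above background on 2 of the 3 adult arrays, and its change (-1.59) was -0.32 in the normexp alternative. Endothelial markers fell in 5 of 5, from -0.85, -0.75 and -0.41 to -2.42, -3.01 and -2.31. One of the 5, Vwf, was well above background on only 1 adult array, its ages overlapped, and its change (-0.73) turned to 0.29 in the normexp alternative. Endothelial cells line blood vessels, whereas peritubular myoid cells surround the tubules. Myoid markers fell in 3 of 5, from -2.30, -2.09 and -2.53 to -2.73, -3.12 and -3.13, with Cnn1 at the floor on all arrays.

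Leydig markers, of the cells that make testosterone, rose in 2 of 4 and fell in 1, with means of 0.29, 0.43 and -0.23 against 1.45, 1.37 and 1.33. These means rest largely on 2 genes not tested because of flagged spots, Hsd3b6 and Insl3, which were higher by 6.18 and 3.49 on the log2 scale with those spots kept, while Hsd17b3 was lower (-2.04), so they do not show a rise of the list. Macrophage markers rose in 1 of 2 and fell in 1, with means of -0.95, -1.04 and -1.22 against -0.90, -1.03 and -0.98.

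Tissue that adjoins the testis has markers of its own. Epididymis markers fell in 2 of 8 and rose in 2, with means of -3.97, -5.0 and -3.56 against -5.24, -5.11 and -4.70, and Lcn8 was at the floor. Crisp1, picked out of this list after its values were seen, stood at 2.43 on neonatal replicate 1 and 2.51 on neonatal replicate 3 but at -4.34 on neonatal replicate 2, and at -4.23, -4.37 and -5.30 in adult testis. With those 2 neonatal arrays left out and no replicate block, a setting chosen after seeing the data, 7 of 8 retinoic acid genes fell and 1 rose. Only 1 neonatal array is then left and its spread is taken from the adult arrays, so these calls are no test of the others. Defb42, picked out likewise, was at -0.57, -1.65 and -0.27 in neonatal testis and at the floor on every adult array. Others of the list went the other way: Ros1 was at -7.22, -7.22 and -6.94 in neonatal testis and at -2.39, -2.70 and -2.31 in adult testis, and Lcn9 at the floor on every neonatal array and at -6.55, -5.94 and -6.00 in adult testis. Fat markers fell in 3 of 4, from -3.19, -1.88 and -2.66 to -4.20, -4.01 and -3.84. Red cell markers fell in 1 of 3 and rose in 1, with means of -0.65, -0.36 and -0.87 against -1.93, -1.54 and -1.92, and Slc4a1 was at the floor.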

How the data were processed

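The authors read the arrays with Agilent Feature Extraction 10.5.1.1, per the submitters' processing notes. The deposited scanner files hold the background-subtracted intensity of each spot, and other scanner flags that the authors deposited with it. A second deposited table holds the authors' log2 values. On each array 99.8% of them differ (to within 0.001) from the log2 of the signal, floored at 5, by 1 number only. The paper names quantile normalization, which does not in general shift an array by 1 number. For Rarb, which has no flagged spot, the authors' values and the shift to the median gave the same log2 ratio (-3.82). The number thus acts much like a shift to the median, and these alternatives are not independent. Their medians per array lie between 1.20 and 1.30.

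Intensities were averaged per probe and divided by the 75th percentile over non-control probes (2947, 2503 and 1385 in neonatal, 1856, 1425 and 747.3 in adult replicates 1 to 3). Outlier flags covered 10.7%, 9.84% and 30.7% of neonatal and 8.32%, 6.11% and 25.4% of adult spots, and 0 spots were saturated. limma 3.58.1 in R 4.3.3 tested 24517 probes with at least 1 array well above background. The block for the replicate number follows the study's paired test. Deviations from the age mean correlated at 0.341, 0.248 and 0.587 between arrays of the same number and at 0.323 and 0.286 between other arrays of 1 slide, so the number was not shown to add to the slide. The few replicates limit the precision. RefSeq accessions named 21905 of 22464 mRNA probes (97.5%, table on GRCm38.p6), and a gene with several probes counts by its brightest. Members and lists were chosen with earlier results of these data known. Named genes are the members, differentially expressed pathway genes, a fixed set of other pathway genes, the nearest patterns and the lncRNAs. Of the named genes, 1 is not reported here, though the counts include it. The normexp alternative used median spot signals and an offset of 50. The fit was tested on simulated data: a first simulation gave no calls, the noise was drawn another way after that was seen, and the second recovered most of the largest changes, a minority of the middle ones and almost none of the smallest. Few probes change in the simulation and most do in the data, so the adjustment is stricter in the simulation and these shares do not carry over to the data.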

Additional observations from a re-analysis of the deposited data

How the results depend on the processing

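No alternative turned the direction of any of the 9 genes where they could be tested. Cyp26b1, Rarb and Rarg passed the threshold (adjusted p alone) in each of them, and Stra6, Rara and Cyp26a1 in all but the methods' t-test. That test called 3 of 8 genes lower and 0 higher after Benjamini-Hochberg adjustment, and by unadjusted p alone 6 lower and 0 higher, of which 4 lower changed 5-fold or more as the methods also ask; of the other pathway genes it called 7 higher and 12 lower. For genes higher in the adult, the count was 0 after quantile normalization and with no filter on dim probes, where Aldh1a2 lost its call. Without the replicate block the counts were 1 higher and 7 lower, and 13 and 24 for the other pathway genes, and the block changed no call of the 8 genes tested. Leaving out arrays gave 0 to 1 higher and 1 to 8 lower, and 6 to 14 and 6 to 30 for the other pathway genes; with flagged spots left out, without replicate 1 or 2 only Rarb of the 9 could be tested, and without replicate 3 the counts for the other pathway genes were 10 and 23. With neonatal replicates 1 and 3 left out together, chosen after seeing the data, 6 other pathway genes were higher and 19 lower, but the 1 neonatal array is assumed to vary like the adult arrays. Quantile normalization, the shift to the median, the authors' values and normexp moved the median of mRNA probes by -0.33, -0.31, -0.32 and 0.43, and under normexp 51.1% of called mRNA probes were higher, against 39.4%. The fitted signs of Dhrs3, Bhlhe40 and Rxrg, among others, turned under normexp.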
